A study of Mus musculus with 6 samples.

Results

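The genes described here are 7 small nucleolar RNA (snoRNA) host genes of the mouse, Gas5, Snhg1, Snhg3, Snhg6, Snhg8, Snhg11 and Snhg12. They were chosen by name, and all 7 had a row among the 32531 gene rows of the count tables. All 7 passed the filter on low counts, out of 16496 genes tested. The RNA came from the thalamus of adult control mice of the line Slc17a6-EGFP/Rpl10a JX883, given no treatment. In translating ribosome affinity purification (TRAP), the ribosomal protein Rpl10a fused to EGFP marks the ribosomes of 1 cell class, here cells in which the transgene named for Slc17a6, the vesicular glutamate transporter gene of thalamic relay neurons, is active. Polysomes were pulled down with anti-EGFP antibodies to give 3 immunopurified libraries (IP), and 3 Input libraries came from the same line. Each group is numbered 1 to 3. The transgene is shared by both groups, so Input holds tagged cells too. Input is treated below as whole-tissue RNA. This is assumed, because its molecule label reads ribosomal-bound RNA, the same as that of IP. The labels do not say whether replicates were separate or pooled animals, so p-values measure only the spread between these libraries, which may be in part technical.

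A snoRNA guides the chemical modification of ribosomal and other RNA, and in mammals most are cut out of the introns of host transcripts. Many hosts are long noncoding RNAs whose spliced exons leave the nucleus, belong to the TOP class (terminal oligopyrimidine, a C followed by a pyrimidine run at the cap, as in ribosomal protein mRNAs), meet ribosomes on short reading frames and are broken down by nonsense-mediated decay. The comparison of IP with Input asks which of these transcripts were recovered with tagged ribosomes. Snhg11 differs from the others in that it is known as an abundant, neuron-enriched RNA of the brain.

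Gene totals were 52068141 to 54421395 reads in IP and 44081149 to 47340321 in Input, so that 3 reads stood for 0.0551 to 0.0681 CPM (the usual unit of a gene's reads scaled to the library's total). Levels below are CPM scaled with TMM factors. Summed over 8 markers of thalamic glutamatergic neurons, levels were 6391 to 10685 CPM in IP and 2243 to 6801 CPM in Input. These ranges overlapped, and 3 of the 8 genes were higher in IP by the test. Slc17a6, with the highest mean of the 8 in both groups, was not called. Its log2 fold change was 1.27 ± 0.68 (SE, edgeR adjusted p = 0.206). With the replicate numbers in the fit its edgeR adjusted p was 0.000246. Summed over 7 oligodendrocyte markers, they were 159 to 282 CPM in IP and 3282 to 5040 CPM in Input.

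The start of each transcript is shown first, because the TOP class is defined there. The lines run from 40 bases before to 25 bases after a RefSeq start (GRCm38.p6), 5′ to 3′, with a C and the pyrimidines after it in capitals where at least 4 pyrimidines follow a C within 5 bases of the start. Snhg6 has no entry in that table, and its line gives the first 30 bases of a GENCODE M21 transcript, Snhg6-203, in the same way.
Gas5, chr1:161035126-161035190, plus strand: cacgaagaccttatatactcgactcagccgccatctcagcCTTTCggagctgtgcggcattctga
Snhg8, chr3:123508312-123508376, minus strand: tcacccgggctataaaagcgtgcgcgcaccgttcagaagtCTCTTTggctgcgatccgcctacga
Snhg12, chr4:132308638-132308702, plus strand: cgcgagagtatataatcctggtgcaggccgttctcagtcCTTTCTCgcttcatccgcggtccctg
Snhg3, chr4:132353662-132353726, minus strand: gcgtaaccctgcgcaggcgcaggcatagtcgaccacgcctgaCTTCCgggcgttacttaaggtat
Snhg6, chr1:9944089-9944118, minus strand: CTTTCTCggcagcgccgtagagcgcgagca
Snhg1, chr19:8723447-8723511, plus strand: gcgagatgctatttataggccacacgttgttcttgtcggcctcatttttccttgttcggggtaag
Snhg11, chr2:158375673-158375737, plus strand: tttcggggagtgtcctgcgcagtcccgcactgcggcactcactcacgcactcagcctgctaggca

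Exactly at the RefSeq start, a TOP match (a C, then 4 pyrimidines, on the strand of the gene) was present in Gas5 and Snhg8, and within 5 bases of it in 4 genes, Gas5, Snhg8, Snhg12 and Snhg3. Of all 32851 RefSeq start windows, 2.51% held the match at the start and 18.3% within 5 bases. For 60 genes of cytosolic ribosomal proteins the shares were 21.7% and 46.7%. A gene, here or among the 6 host genes with an entry, was counted if any of its windows matched. Shares per gene can therefore exceed shares per window. Gas5 has another RefSeq start, upstream, without a match. Among GENCODE transcripts, 5 of 25 of Gas5, 3 of 10 of Snhg12, and 1 each of Snhg3, Snhg6 and Snhg8 began with a match, and 0 of 18 of Snhg1 and 0 of 5 of Snhg11. For Snhg1 and Snhg11 this says only that these letters are not in these windows.

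The genes also differed in the snoRNAs they hold. GENCODE places 27 snoRNAs inside the 7 genes, all in introns of the spliced transcript with most exons. Box C/D snoRNAs guide methylation and box H/ACA snoRNAs guide pseudouridylation, and 2 of each kind are shown with their boxes in capitals. The boxes searched on the snoRNA strand were TGATGA (C) in the first 20 bases with CTGA (D) in the last 15, or else ACA up to 6 bases from the end of a snoRNA of at least 110 bases.
Snord47 of Gas5, chr1:161038082-161038158: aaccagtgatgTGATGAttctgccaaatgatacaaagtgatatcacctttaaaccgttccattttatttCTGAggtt
Snord87 of Snhg6, chr1:9942463-9942549: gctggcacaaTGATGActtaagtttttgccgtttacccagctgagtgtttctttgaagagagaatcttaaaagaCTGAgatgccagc
Snora24 of Snhg8, chr3:123507937-123508066: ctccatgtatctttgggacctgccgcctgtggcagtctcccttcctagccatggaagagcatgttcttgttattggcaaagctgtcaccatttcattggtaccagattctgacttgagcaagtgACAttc
Gm25187 of Snhg11, chr2:158378222-158378354: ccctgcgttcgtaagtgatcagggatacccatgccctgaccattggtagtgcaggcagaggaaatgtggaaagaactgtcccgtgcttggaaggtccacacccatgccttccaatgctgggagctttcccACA

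By these letters, 14 of the 27 snoRNAs were C/D, 7 were H/ACA and 6 were not classed, against 20.2%, 42.1% and 37.6% of all 1507 annotated snoRNA transcripts. Gas5 held 9 snoRNAs, 7 of them C/D and 0 H/ACA, and Snhg1 held 8, 5 of them C/D. The single snoRNA of Snhg6 was C/D. Snhg12 held 4, of both kinds. The 2 snoRNAs of Snhg3, the 1 of Snhg8 and the 2 of Snhg11 were all H/ACA. The name Snord host, which means a C/D host, therefore does not cover Snhg3, Snhg8 and Snhg11, and the set is called snoRNA host genes here.

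**Figure D1:**
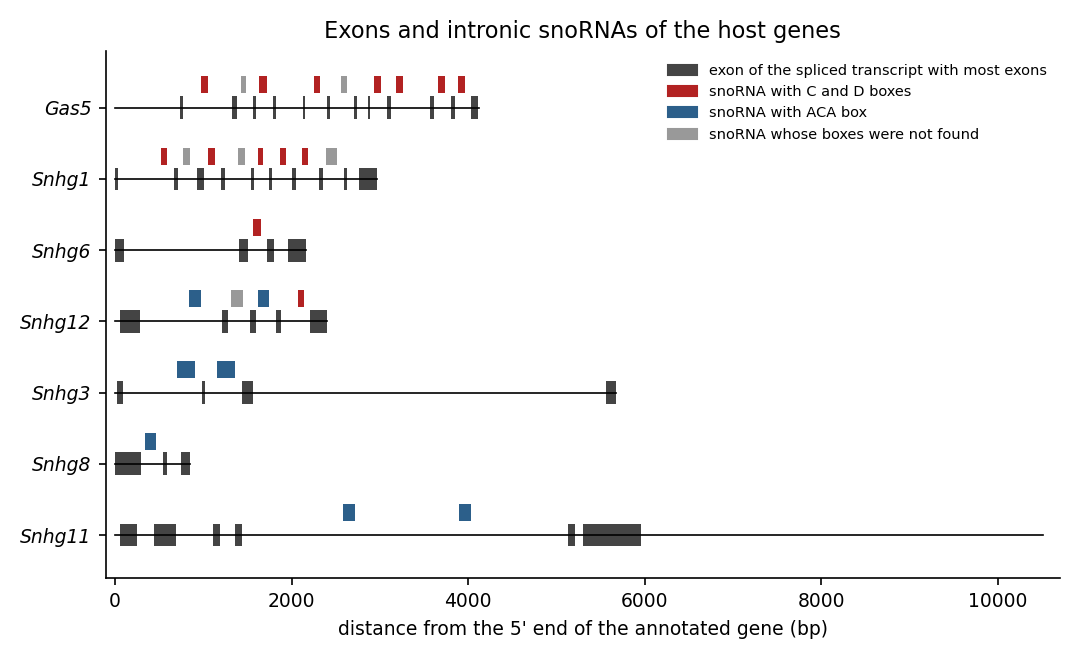
Exons (dark boxes) of the spliced GENCODE transcript with most exons and the intronic snoRNAs (coloured boxes above the line) of the 7 host genes, drawn to scale against the distance in bp from the 5′ end of the annotated gene, which is the line. Gas5 and Snhg1 carry 9 and 8 snoRNAs in short introns, and Snhg11, the longest gene, carries 2.

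Gas5 lies on chromosome 1 from 161034422 to 161038539, Snhg1 on chromosome 19 from 8723475 to 8726443 and Snhg6 on chromosome 1 from 9941959 to 9944118 (GENCODE M21 on GRCm38, the assembly of mm10). Snhg8 lies on chromosome 3 from 123507552 to 123508404, Snhg11 on chromosome 2 from 158375638 to 158386145, Snhg12 on chromosome 4 from 132308623 to 132311024 and Snhg3 on the same chromosome from 132348014 to 132353686. RefSeq gives lncRNA as the type of all 7. GENCODE gives noncoding types for 6 and calls Snhg11 protein coding, with an annotated reading frame of 87 codons. The longest ATG-to-stop frame in a spliced transcript had 89 codons in Snhg11, 81 in Gas5, 57 in Snhg12, 56 in Snhg6, 43 in Snhg3, 41 in Snhg1 and 35 in Snhg8. The median longest annotated reading frame of 21865 protein-coding genes had 392 codons, and 2.27% of them had 89 codons or fewer.

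Snhg11 was the only host gene that differed between IP and Input by the test, and it fell about 20-fold. It had 1953, 2448 and 2874 CPM in Input replicates 1, 2 and 3, and 177, 84.6 and 97.5 CPM in IP replicates 1, 2 and 3. All 3 IP values lay far below all 3 Input values, with IP replicate 1 above the other IP libraries. IP over Input was -4.34 ± 0.33 on the log2 scale (SE; edgeR quasi-likelihood test, adjusted p = 0.000125), and within the replicate numbers the log2 ratios were -3.46, -4.85 and -4.88. In Input, Snhg11 was the 15th most abundant row of the whole table by CPM and took 0.190% to 0.287% of gene reads. In IP it was the 1834th, with 0.00864% to 0.0160% of gene reads. In all 21 alternative fits with a Snhg11 value, the gene was called lower, with log2 fold changes between -4.87 and -4.06. The RNA is bulk and IP holds only RNA recovered with tagged ribosomes. Fewer cells of a type, less RNA per cell and a smaller share of the RNA on ribosomes therefore cannot be told apart.

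The other host genes did not pass the test in either direction. Of the 7, 1 was called lower and 0 higher (edgeR adjusted p under 0.05), against 15.6% lower and 9.60% higher, 25.2% in all, among the 16496 genes tested. DESeq2, limma-voom and an unadjusted edgeR p under 0.05 gave the same counts, 1 lower and 0 higher. The IP and Input values of 6 host genes overlapped and those of 1, Snhg11, did not, and among all genes tested 44.9% did not overlap.

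**Figure D2:**
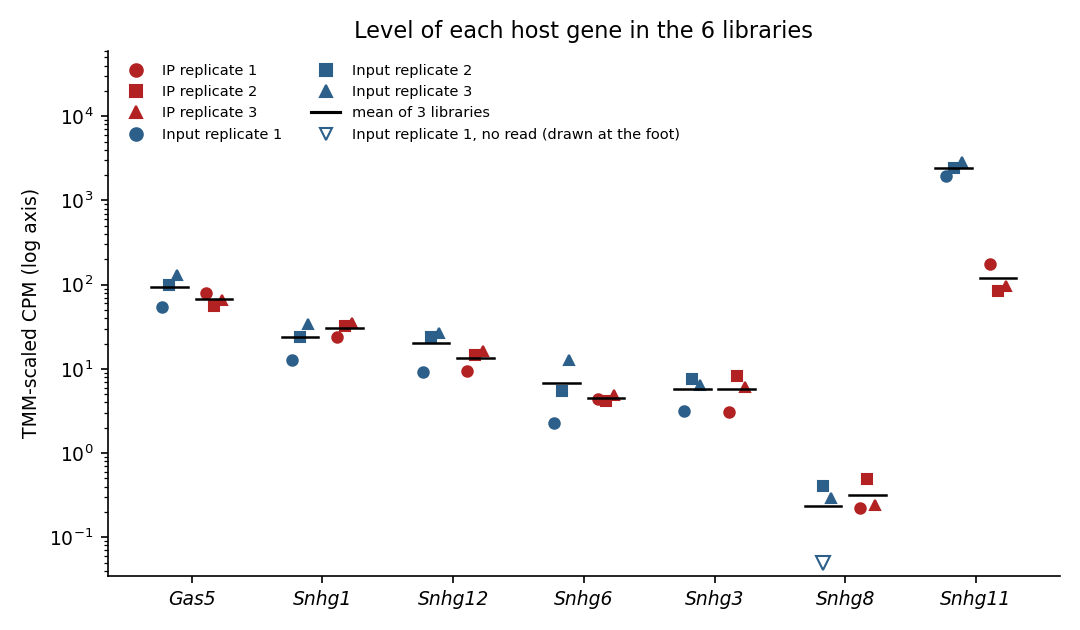
TMM-scaled CPM (log axis) of the 7 host genes in the 3 Input (blue) and 3 IP (red) libraries, with a bar at each mean. Snhg11 lies between 1953 and 2874 CPM in Input and between 84.6 and 177 CPM in IP, and the values of the other 6 genes overlap between the groups.

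Gas5, a host of box C/D snoRNAs known for accumulating in growth-arrested cells, was the most abundant of these genes in CPM after Snhg11. It had 54.9, 98.4 and 131 CPM in Input replicates 1, 2 and 3, and 80.6, 56.4 and 65.9 CPM in IP replicates 1, 2 and 3. The 3 IP values lay inside the range of the Input values. On the log2 scale IP over Input was -0.48 ± 0.31 (SE; adjusted p = 0.283 by edgeR), and the direction was not shared by the replicate numbers, with log2 ratios of 0.55, -0.80 and -0.99. Leaving out Input replicate 1 gave -0.75 with a call of lower (adjusted p = 0.0479 by edgeR). Leaving out both libraries of replicate 1 gave -0.90 (adjusted p = 0.0261 by edgeR). Leaving out Input replicate 3, the highest library, gave -0.17 (adjusted p = 0.713 by edgeR), and leaving out both libraries of replicate 3 gave -0.15.

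Snhg1, which also hosts box C/D snoRNAs, had 12.7, 24.1 and 34.2 CPM in Input replicates 1, 2 and 3, and 24.1, 32.6 and 34.9 CPM in IP replicates 1, 2 and 3. The highest IP value was barely above the highest Input value. Its log2 fold change was 0.37 ± 0.35 (SE; adjusted p = 0.486 by edgeR), with IP above Input in 3 of 3 replicate numbers. The value was 0.07 without Input replicate 1 and 0.74 without Input replicate 3. Snhg12, a host of both kinds of snoRNA, had 9.22, 23.9 and 27.0 CPM in Input and 9.53, 14.7 and 16.3 CPM in IP, in the order of the replicate numbers. Both groups were lowest in replicate 1, and all 3 IP values lay between the lowest and the highest Input value. For Snhg12 IP over Input was -0.57 ± 0.41 on the log2 scale (edgeR adjusted p = 0.347). It was -0.91 (edgeR adjusted p = 0.0685) without Input replicate 1 and -0.28 (edgeR adjusted p = 0.674) without Input replicate 3.

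Snhg6, the host of Snord87, varied more in Input than in IP. It had 2.30, 5.40 and 12.6 CPM in Input replicates 1, 2 and 3, and 4.44, 4.19 and 4.83 CPM in IP. The coefficient of variation was 78.1% over the Input libraries and 7.22% over the IP libraries. With all libraries the log2 fold change was -0.59 ± 0.57 (SE; adjusted p = 0.493 by edgeR), and it was 0.23 without Input replicate 3 and -0.997 without Input replicate 1. Of its exon bases, 11.1% are shared with Mcmdc2 on the opposite strand, and no source used here gives the strand setting of the counting, so reads there cannot be told apart.

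Snhg3, the host of both copies of Snora73, a snoRNA of rRNA processing, was at the same mean level in both groups, with 5.77 ± 2.58 CPM for IP and 5.75 ± 2.30 CPM for Input (SD, n = 3). By replicate number the values were 3.20, 7.67 and 6.38 CPM in Input and 3.08, 8.22 and 6.01 CPM in IP. The 2 libraries of a replicate number were close to each other in each case, with log2 ratios of -0.05, 0.10 and -0.09. The log2 fold change was 0.01 ± 0.49 (edgeR adjusted p = 0.995). Of the Snhg3 exon bases 13.7% are shared with Rcc1 on the same strand and 71.5% with Gm17300 on the opposite strand. Reads in shared exons may have been set aside as ambiguous or given to either gene, so the level of Snhg3 is uncertain. Rcc1 had a log2 fold change of 0.45 ± 0.37 (edgeR adjusted p = 0.417).

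Snhg8, the host of Snora24, was near the limit of detection. It had 0, 20 and 13 reads in Input replicates 1, 2 and 3, and 11, 26 and 13 reads in IP. The 0 reads of Input replicate 1 allow up to 0.0634 CPM before TMM scaling, counting error only. Its log2 fold change was 0.43 ± 1.25 (SE; adjusted p = 0.838 by edgeR), a standard error larger than the difference.

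Input replicate 1 was the lowest Input library for 7 of 7 host genes. The same held for 33.9% of all genes tested, for 87.0% of 77 cytosolic ribosomal protein genes, for 77.8% of 18 other TOP mRNAs and for 57.1% of 14 other noncoding snoRNA hosts. The median log2 ratio of Input replicate 1 over the mean of the other Input libraries, with 0.5 CPM added to each, was -1.06 for the 7 host genes and -0.64 for ribosomal protein genes, against -0.02 for all genes. Other lists moved as well. Of 6 cortex and hippocampus markers 83.3% were lowest there, with a median of -2.38. Of 12 nuclear and imprinted long noncoding RNAs 66.7% were, with a median of -0.28. Among 7 astrocyte markers it was 14.3%, with a median of 0.85. In this library 13.2% of alignment records were ambiguous between genes, against 7.43% and 7.37% in the other Input libraries. The part of this in the results above was not tested.

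A ratio to Gas5 within each library does not depend on the scaling between libraries. Snhg8 is the exception, because 0.5 CPM was added to both genes, more than the level of Snhg8 in any library. Its ratio therefore mostly follows Gas5. The log2 ratio of Snhg11 to Gas5 was 5.15, 4.64 and 4.46 in Input replicates 1, 2 and 3, and 1.13, 0.58 and 0.56 in IP. The mean difference of IP minus Input was -3.99, and the groups did not overlap. The log2 ratio of Snhg1 to Gas5 was -2.11, -2.03 and -1.93 in Input and -1.74, -0.79 and -0.92 in IP. Here IP lay above Input in every library, by a mean of 0.87. That difference combines the log2 fold changes of Snhg1, at 0.37, and of Gas5, at -0.48, neither of which was called with all 6 libraries. For both ratios the two-sided exact permutation p was 0.10, the smallest that 3 against 3 libraries can give, and 0.30 after Benjamini-Hochberg adjustment over 6 ratios. Permuted within the 3 replicate pairs, an alternative chosen after seeing the data, the exact p was 0.25 for both, the smallest that 3 pairs can give, and 0.75 adjusted. The ratios of Snhg12, Snhg6, Snhg3 and Snhg8 overlapped between the groups, with mean differences of -0.05, 0.14, 0.40 and 0.59 (exact permutation p from 0.30 to 1).

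**Figure D3:**
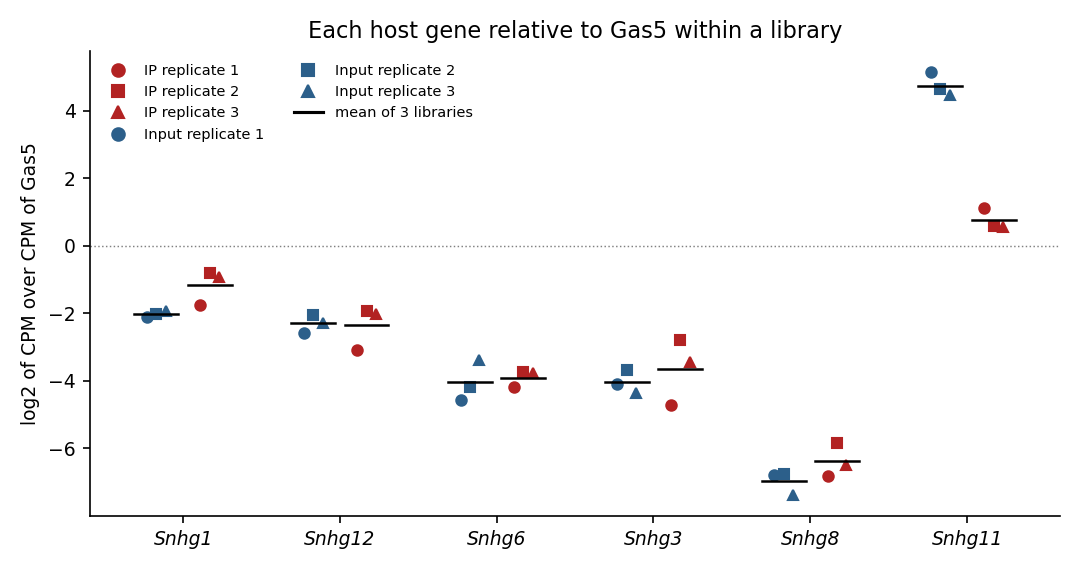
The log2 ratio of each host gene to Gas5 within a library, in Input (blue) and IP (red), with a bar at each mean; for Snhg8, 0.5 CPM was added to both genes. The Snhg11 ratio falls from between 4.46 and 5.15 in Input to between 0.56 and 1.13 in IP, and the Snhg1 ratio lies higher in all IP libraries.

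Levels were compared between host genes per kilobase of annotated exon, with lengths from GENCODE M21. The annotation used in the counting is not known and may differ, so these levels are uncertain. In Input, Snhg11 stood at 285 ± 54.1 CPM per kb (SD, n = 3), above Gas5 at 25.2 ± 10.1, Snhg12 at 8.34 ± 3.95 and Snhg1 at 7.98 ± 3.62. Snhg6 at 5.91 ± 4.62, Snhg3 at 5.83 ± 2.34 and Snhg8 at 0.275 ± 0.248 CPM per kb followed. Only the steps from Snhg11 to Gas5, from Gas5 to Snhg12 and from Snhg3 to Snhg8 separated neighbours without overlap of their libraries. In IP the order was Gas5 at 18.0 ± 3.24, Snhg11 at 14.04 ± 5.87, Snhg1 at 10.3 ± 1.92, Snhg3 at 5.85 ± 2.61, Snhg12 at 5.63 ± 1.47, Snhg6 at 3.92 ± 0.283 and Snhg8 at 0.372 ± 0.175 CPM per kb. There only the step from Snhg6 to Snhg8 was free of overlap. Retained-intron transcripts, 20 of 25 in Gas5 and 14 of 18 in Snhg1, lengthen the exon union. Per kb of the longest spliced transcript, IP levels were 102 CPM for Gas5, 43.0 for Snhg1 and 20.4 for Snhg11, so Snhg1 then stood above Snhg11. In Input they were 414 CPM for Snhg11, 142 for Gas5, 33.4 for Snhg1 and 13.0 for Snhg12, so Snhg1 stood above Snhg12 and Gas5 was closer to Snhg11 than per kb of the exon union. Snhg11 had 93.2% to 96.0% of all reads of the 7 genes in Input and 42.0% to 59.2% in IP.

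The other noncoding snoRNA hosts were likewise mostly not called. Of 16 names, 14 had a row, 2 were lower in IP and 0 higher (edgeR adjusted p under 0.05; at an unadjusted p 5 lower and 0 higher, 5 and 0 in DESeq2, 3 and 0 in limma-voom, 4 and 0 with the replicate block, which called 19.2% of all genes lower and 15.9% higher). Their median log2 fold change was -0.39, against -0.48 for the 7 genes, -0.04 for all genes tested and -0.46 for 708 annotated noncoding genes, of which 141 were lower and 12 higher. The genes lower in IP were Snhg14, the long imprinted host of the Snord115 and Snord116 clusters, at -2.68 ± 0.55 (SE), and Dancr, the host of Snora26, at -5.35 ± 1.02, with 9 IP reads against 334 Input reads. Zfas1 (row 1500012F01Rik) had 26.7 ± 5.53 CPM in the IP and 25.9 ± 7.16 CPM in the Input libraries (SD over 3 each) and a log2 fold change of 0.04. For Snhg4 it was -0.39.

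Of 12 nuclear and imprinted long noncoding RNAs, 8 were lower and 1 higher in IP (10 and 2 with the replicate block), and the list had a median of -2.89 on the log2 scale. Malat1, a nuclear speckle RNA, had -5.48 ± 0.40 (SE), Meg3 -5.06 ± 0.26 and Miat -4.89 ± 0.34. Kcnq1ot1, Mirg and Rian had -3.84, -3.40 and -3.08. Peg13 was the gene higher in IP, at 0.89 ± 0.17. Snhg11, at -4.34, lay between Miat and Kcnq1ot1, and the other 6 host genes ran from -0.59 to 0.43. Among all genes tested, 4.83% had a lower log2 fold change than Snhg11, and among the annotated noncoding genes 11.6%. Only 5 rows were at least as abundant in Input with at least as large a fall. They were Malat1, Meg3 and the rows AK140265, DQ539915 and X57780, which had no match in the annotation. These 5 rows were picked out after their values were seen.

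**Figure D4:**
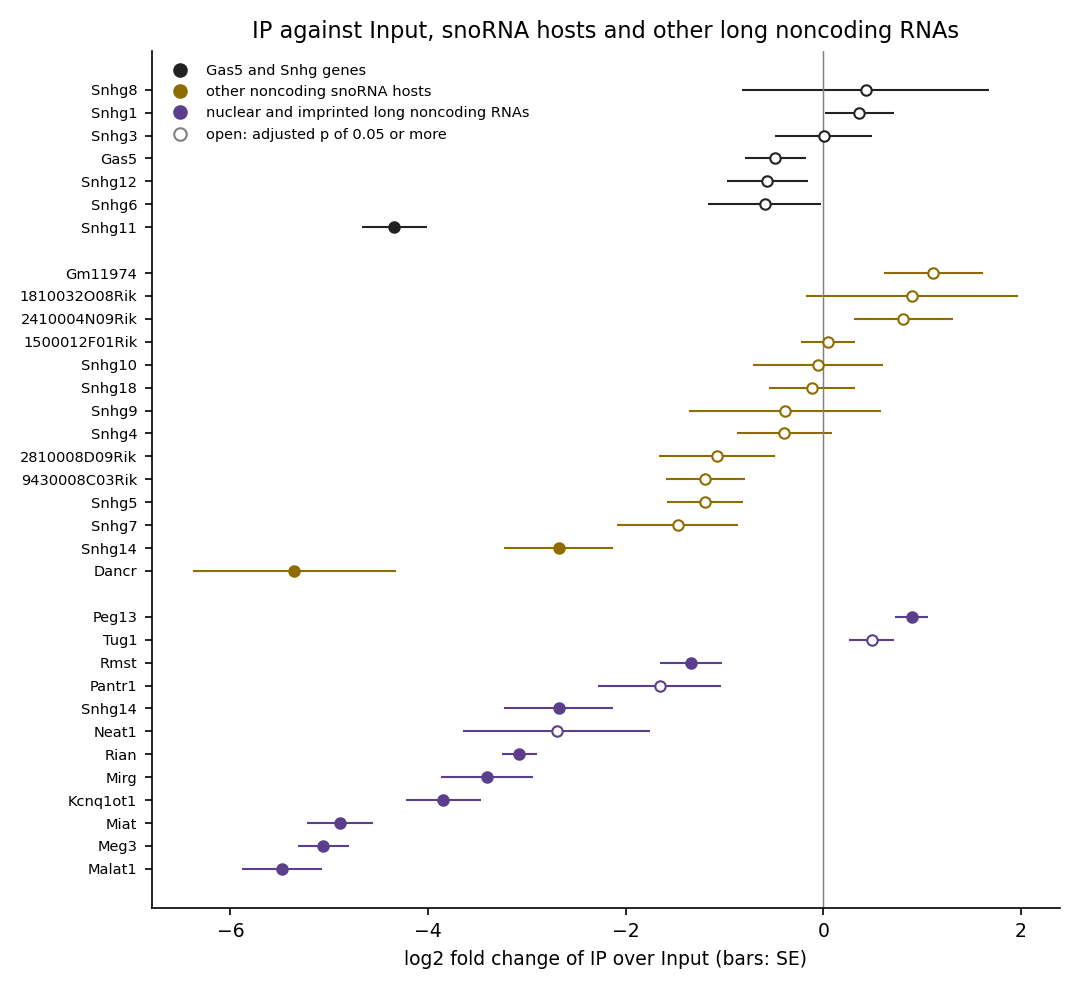
The log2 fold change of IP over Input (x axis; bars are SE) for the 7 host genes, 14 other noncoding snoRNA hosts under the row names of the tables, and 12 nuclear and imprinted long noncoding RNAs; Snhg14 is in both lists. Filled points passed the test. Snhg11 sits at -4.34, between Miat and Kcnq1ot1, and the other 6 host genes lie between -0.59 and 0.43. Cell type markers, some of which fell as far, are not drawn.

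Protein-coding genes that host snoRNAs showed no called change. Of 30 tested, 0 were higher and 0 lower by edgeR (at an unadjusted p 2 higher and 1 lower, 1 and 0 in DESeq2, 0 and 0 in limma-voom, with the replicate block 2 and 1), and their median log2 fold change was 0.09. Eef2, an elongation factor, had -0.06, Eif4a2, an initiation helicase, 0.23 and Rpl4, a ribosomal protein, -0.14. The lists of this paragraph share genes and are not independent of each other. Eef2 is counted again among the TOP mRNAs below, and Rpl4 among the ribosomal protein genes, for example. Of 18 TOP mRNAs of translation factors and their partners, 1 was lower and 0 higher (with the replicate block 2 and 1; at an unadjusted p 2 and 2; 1 lower and 1 higher in DESeq2, 1 and 0 in limma-voom), with a median of -0.03. The lower one was Pabpc1, the poly(A)-binding protein gene, at -0.97 ± 0.20 (SE; edgeR adjusted p = 0.0101). Of 77 cytosolic ribosomal protein genes, 1 was lower and 0 higher (with the replicate block 0 and 8; at an unadjusted p 1 and 7; 1 and 1 in DESeq2, 0 and 2 in limma-voom), with a median of 0.25. The lower one, Rpl9, had only 85 IP and 300 Input reads; near-identical copies of these genes make their counts uncertain.

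Transcripts that encode proteins acting on snoRNAs and on host transcripts were also measured, as RNA only. Of 10 snoRNP protein genes, 3 were higher in IP and 0 lower (at an unadjusted edgeR p 4 and 0, 4 and 0 in DESeq2, 3 and 0 in limma-voom), and the median of the list was 0.50 on the log2 scale. They were Nhp2 at 1.30 ± 0.25 (SE), Nop10 at 1.23 ± 0.26, both core proteins of H/ACA particles, and Snu13 (row Nhp2l1) at 1.28 ± 0.33, which binds C/D snoRNAs and also belongs to the spliceosome. Dkc1, the pseudouridine synthase of H/ACA particles, had 0.51 (edgeR adjusted p = 0.0674), and in the fit with replicate numbers its edgeR adjusted p was 0.0334. Nop56 and Nop58, of C/D particles, had -0.06 and 0.50. Of 14 genes of nonsense-mediated decay and the exon junction complex, 2 were higher and 1 lower, with a median of 0.08. Transcripts of the junction proteins Magoh and Rbm8a were higher, at 0.89 and 0.82. That of Smg1, the kinase of Upf1, was lower at -1.48 ± 0.17.

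Few reads were counted to the snoRNAs themselves. Of the 27 snoRNAs inside the 7 genes, 7 had a row of their own, and 0 of the 7 passed the filter on low counts. Snora61 of Snhg12 had 17 Input reads and 2 IP reads, Snora44 of Snhg12 had 12 and 1, and Snord47 of Gas5 had 4 and 0. Snora16a of Snhg12 went the other way, with 0 Input reads and 16 IP reads, in all 3 IP libraries. Snord22 of Snhg1 and Snord99 of Snhg12 had 0 reads in every library. In GENCODE the exons of all transcripts together cover the whole of Snhg1 (2969 bp) and Snhg12 (2402 bp). Their snoRNAs thus also lie in host exons. Reads there may have been set aside as ambiguous or given to the host, so these counts are uncertain.

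Profiles over the 6 libraries were compared by the root mean square distance of log2(CPM + 1) values after subtracting each gene's mean, among 10906 genes whose mean was 5 CPM or more. The distance between Snhg11 and another host gene was 2.01 to 2.47, and among the other 6 it was 0.295 to 0.572. The genes nearest to Snhg11 were Amy1, AK162351 and AK017280, at 0.245, 0.317 and 0.328, and their log2 fold changes were -4.77, -7.30 and -5.38. Their means over the 6 libraries were only 17.4, 8.45 and 21.1 CPM. Adding 1 CPM shrinks falls at such levels, so a small distance here is not an equal fold change. Nearest to Gas5 were Trit1, Pdlim7 and Cnbd2, at 0.141 to 0.150. Nearest to Snhg1 were Scrt2, Cnbp and Prpf19, at 0.0410 to 0.0523, and nearest to Snhg12 were Arglu1, Arhgap6 and Dnajc24, at 0.0858 to 0.151. For Snhg6 they were Pars2, Kcnip2 and 4931428F04Rik and for Snhg3 Sf3a2, Peg10 and Fbxl18. Snhg8 lies so low that adding 1 CPM flattens its profile, and its neighbours are not given.

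Other cell types in Input moved with the groups as well. All 7 oligodendrocyte markers, 6 of 7 astrocyte markers, 6 of 7 microglial markers and 4 of 6 GABAergic neuron markers were lower in IP. In the same order, the median log2 fold changes of these lists were -4.29, -4.32, -5.44 and -3.33, and Snhg11 had -4.34. Summed levels of the GABAergic list were 106 to 262 CPM in IP and 835 to 1392 CPM in Input, and those of the astrocyte list 313 to 791 CPM and 1352 to 2784 CPM. Summed levels of 12 pan-neuronal markers were 21164 to 27798 CPM in IP and 16726 to 18531 CPM in Input, and Snap25, not called itself (0.52; edgeR adjusted p = 0.0848), made up most of that sum. Of the 12, 5 were higher in IP, 1 (Map2, at -1.39) was lower and 6 were not called. Markers of choroid plexus and ependyma summed to 1192 CPM in Input replicate 3 and 42.0 and 44.7 CPM in Input replicates 1 and 2. The part of these cell types in the fall of Snhg11, and in the levels of the other host genes, was not tested.

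**Figure D5:**
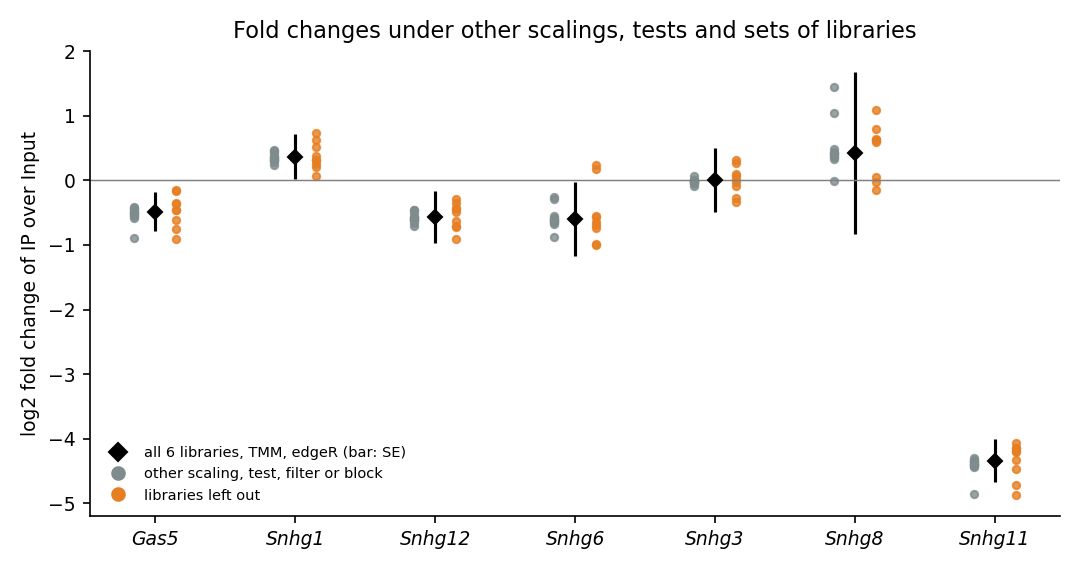
The log2 fold change of IP over Input of each host gene with all 6 libraries (diamond, with a bar for SE) and under other settings (grey or orange). Grey is scaling, test, filter or replicate block, and includes the replicate block without replicate 1. Orange is the other fits with libraries left out. Snhg11 stays between -4.87 and -4.06, and Snhg3, Snhg6 and Snhg8 fall on both sides of 0.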

How the data were processed

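The authors deposited 1 table of raw read counts per gene for each of 6 libraries, and the submitters' processing notes name mm10, STAR 2.0.0e and HTSeq. Which annotation, strand setting and library kit they used is not given in those sources. Summary rows were left out of library sizes; they held 38.5% to 45.0% (IP) and 23.6% to 27.2% (Input) of records as alignments at more than 1 place. Groups and replicate numbers came from the titles.

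Genes were filtered with filterByExpr, scaled with TMM and tested with edgeR 4.0.16 (R 4.3.3), quasi-likelihood test on group, two-sided, Benjamini-Hochberg over 16496 genes, threshold 0.05; SE is that of the log2 fold change. Ratios used exact permutation tests. Same-numbered libraries deviated together (correlations across genes of 0.456, 0.215 and 0.246), so the numbers of the titles were taken to pair them; the fit without the block stayed the main one. Alternatives were DESeq2 1.42.0, limma-voom (limma 3.58.1), other scalings and filters, the replicate block and left-out libraries. No 2 libraries of a group agreed within sampling noise. The members, lists and tests were chosen with earlier results of these data known. All 7 members were named. Of lists with up to 12 tested genes any gene could be named. Of longer ones the largest called changes and the most abundant genes were named, and the 3 genes nearest in profile to each member. Sequences came from RefSeq promoter windows (6 of 7 members matched) and GENCODE M21 transcripts.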

Additional observations from a re-analysis of the deposited data

How the results depend on the processing

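Snhg11 kept its direction and its call in all 21 alternatives. Host genes lower in IP numbered 1 to 2 over the fits without 1 library or without both libraries of a number, and 2 with the replicate block without replicate 1, an alternative chosen after seeing the data; the added gene was Gas5 each time. With the replicate block on all 6 libraries Snhg11 had -4.41, no call of a host gene changed, and genes higher in IP went from 1583 to 2624. Over the left-out libraries and numbers, genes higher in IP ran from 83 (without replicate 2) to 1640 and genes lower from 651 (without replicate 2) to 2598; without IP replicate 2 they were 731 and 1634, and genes higher were 810 without Input replicate 2, 808 without IP replicate 3 and 972 without replicate 3.

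Snhg3, at 0.01 and never called, turned to -0.00814 (RLE scaling), -0.0363 (library totals), -0.0832 (upper-quartile scaling), -0.0390 (TMM on protein-coding genes), -0.00812 (DESeq2), -0.00396 (limma-voom), -0.0394 (a mean of at least 1 CPM) and -0.0126 (replicate block), and ran from -0.34 to 0.32 over left-out libraries. On the same scale Snhg6 ran from -0.997 to 0.23 and Snhg8 from -0.15 to 1.09; Snhg8 was -0.0152 with the replicate block without replicate 1, 1.05 with the replicate block and 1.45 by limma-voom. The cause was not tested. Depth limits Snhg8, with 0 to 26 reads a library.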
